A study of Mus musculus with 54 samples.

Results

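RNA of the brain was set against RNA of the heart in aged mice that had received vehicle only, to describe what sets these excitable organs apart and what they hold in common. The comparison used 12 of the 54 libraries of the study, 6 of vehicle brain (libraries 27 to 32) and 6 of vehicle heart (libraries 62 to 67), chosen by the tissue and treatment in the sample labels. All 12 came from naturally aged male mice of the BL6 strain, about 20 months old and with no transgene, which were housed singly on regular chow and injected intraperitoneally each day for 14 days with a mixture of DMSO, PEG400 and saline. The labels name the organ but no region of it, and they do not tell which brain and which heart came from the same mouse. The study lists fewer than 12 aged vehicle mice, so some mice gave both organs. The libraries were still treated as separate samples. The p-values set each difference against the spread between libraries, taken as independent. Messenger RNA was captured by its poly(A) tail and sequenced with strand information, and the reads on each gene were counted. Between 26402957 and 32344641 reads per brain library and between 24182734 and 43792168 per heart library lay on genes.

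Neurons and cardiomyocytes both fire action potentials, but to different ends. A neuron uses them to release transmitter from vesicles at synapses, with ion pumping and glial support as its main costs, and burns mainly glucose. A cardiomyocyte uses them to let calcium in and release more of it from internal stores, so that the sarcomere contracts at every beat, and it draws most of its energy from fatty acids in a dense set of mitochondria.

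The labelled tissues were checked against their defining markers. Snap25 (ENSMUSG00000027273), a neuronal protein of vesicle fusion, had a lowest, median and highest level of 1878, 2050 and 2158 CPM (reads on the gene, brought to a common library size with factors of the TMM method) in the brain and of 0, 0.238 and 2.43 CPM in the heart. Mbp (ENSMUSG00000041607), a protein of myelin, had 2497, 2563 and 3071 CPM in the brain against 7.54, 10.3 and 16.04 CPM in the heart. For both genes every brain library lay above every heart library. Myh6 (ENSMUSG00000040752), the cardiac myosin motor, had 34010, 37780 and 41180 CPM in the heart and 0.0279, 0.159 and 0.187 CPM in the brain. Tnni3 (ENSMUSG00000035458), the cardiac inhibitory troponin, had 2658, 3007 and 3567 CPM in the heart and 0.530, 0.589 and 0.748 CPM in the brain. The plot of marker and shared genes shows these 4 genes without overlap between the tissues, and each label matched the markers of its tissue.

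**Figure D1:**
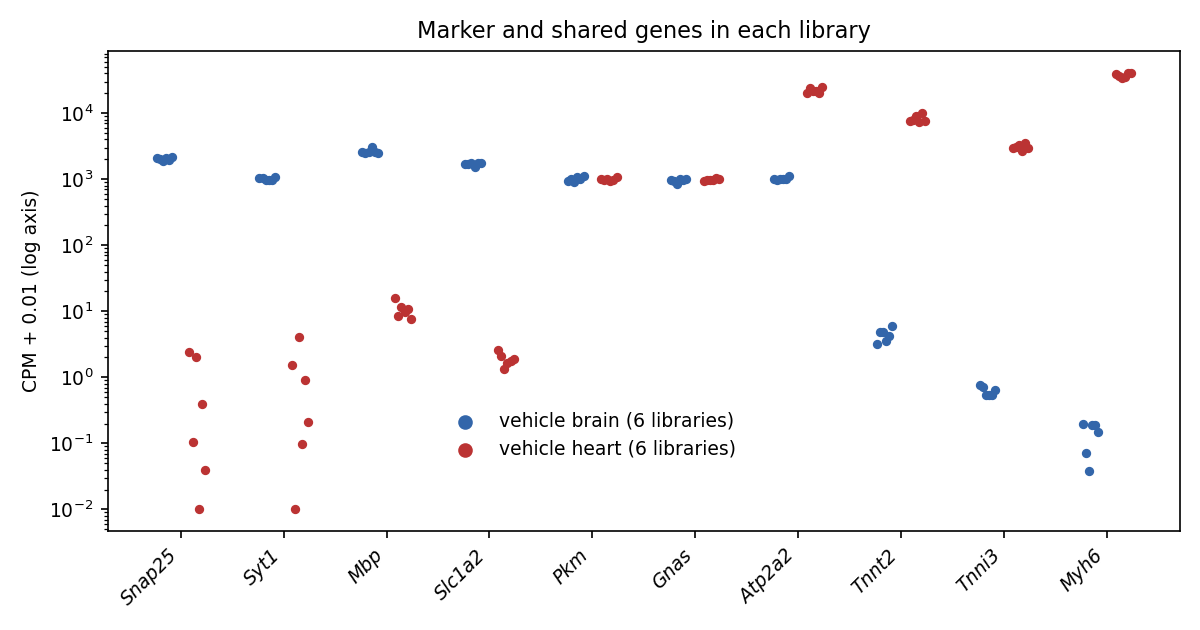
Level of 10 genes in each vehicle brain (blue) and vehicle heart (red) library, in CPM plus 0.01 on a log axis; each point is 1 library (6 per tissue). Snap25 and Mbp lay at 1878 CPM or above in every brain library and at or below 16.04 CPM in every heart library, Myh6 and Tnni3 were at most 0.748 CPM in the brain, and Pkm and Gnas overlapped between the tissues.

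The libraries of a tissue resembled each other far more than those of the other. Across genes, which are not independent replicates, the log2 levels of a library correlated with those of its own tissue at a Pearson r of at least 0.995 in the brain and 0.989 in the heart, and with those of the other tissue at 0.727 or less. The heart spent a much larger share of its reads on few genes. Transcripts of the mitochondrial genome took 3.32% ± 0.336 (SD, n = 6) of the reads on genes in the brain and 17.6% ± 1.59 (SD, n = 6) in the heart, with no overlap between tissues (two-sided exact permutation test, p = 0.002165, the smallest that 6 against 6 libraries allow). The 10 genes with the most reads took 4.39% ± 0.179 in the brain and 22.9% ± 1.48 in the heart, and the 100 with the most reads 15.8% ± 0.177 and 41.9% ± 1.24 (SD, n = 6 each, exact permutation p = 0.002165 for both). Expressed as an effective number of genes, which is the exponential of the Shannon entropy of the counts, the brain held 5401 ± 50 and the heart 1435 ± 118 equally used genes (exact permutation p = 0.002165). Without the mitochondrial genome these numbers were 5847 ± 89.9 and 2623 ± 111 (exact permutation p = 0.002165), so the heart was less even also among nuclear genes. At a common depth, reads fell on 25160 ± 411 genes in the brain and on 19830 ± 1127 in the heart (exact permutation p = 0.002165). Reads that the counting step placed on no gene made up 19.6% ± 1.33 and 20.7% ± 0.442 (exact permutation p = 0.1017).

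**Figure D2:**
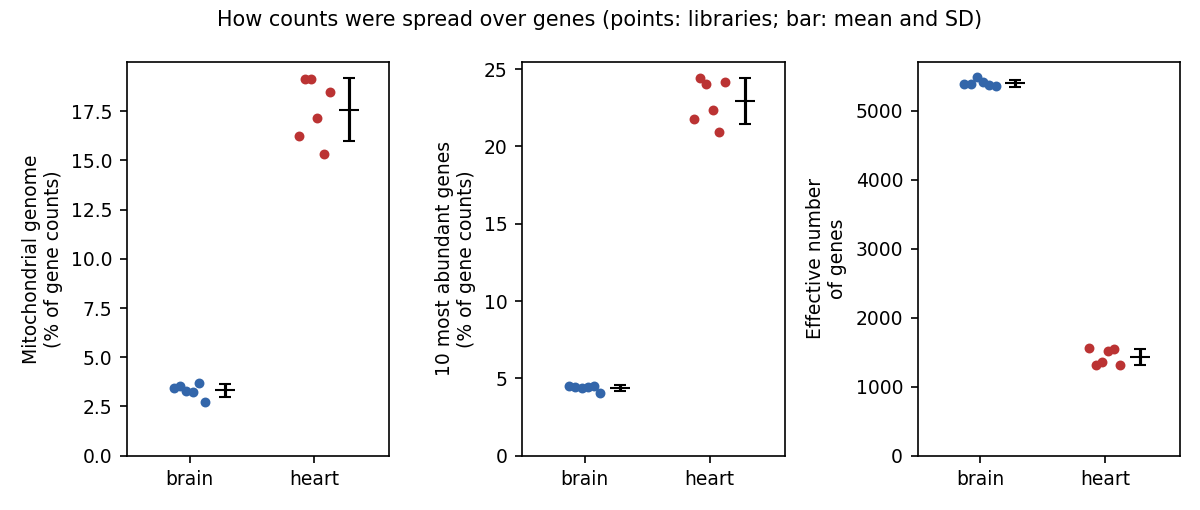
Share of gene counts on the mitochondrial genome (%), share on the 10 genes with the most counts (%), and effective number of genes in each of the 6 vehicle brain and 6 vehicle heart libraries; points are libraries, with the mean and SD beside them. The tissues did not overlap in any of the 3 measures: at most 3.71% of brain counts and at least 15.3% of heart counts were mitochondrial.

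Most genes differed between the tissues. Of 23473 genes with enough reads to be tested, 18667 differed at an adjusted p below 0.05 in edgeR's quasi-likelihood test, which is 79.5%, and 11213 of these were higher in the brain and 7454 in the heart. Since nearly any gene can pass such a test between organs, a gene is called higher below only where the test showed a difference of more than 2-fold. By that rule 7711 genes (32.9%) were higher in the brain and 4293 (18.3%) in the heart. In 14922 genes (63.6%) the 6 libraries of the brain did not overlap the 6 of the heart. These splits depend on the scale and on the filter for low counts. On TMM sizes the brain took 60.1% of the genes that differed and 64.2% of those over 2-fold. On plain library totals it took 73.1% and 76.1%, and with upper-quartile factors 54.7% and 59.4%. Keeping only genes with at least 10 counts in at least 3 libraries gave 54.1% and 58%. The median log2 difference (brain minus heart) of the genes expressed in both tissues was 0.00 on TMM sizes. It was 0.57 on library totals and -0.196 with upper-quartile factors. A gene is called alike below where the 95% interval of its fold change lay within 2-fold and its mean was at least 1 CPM in both tissues. This held for 5563 genes (23.7%), or 44.4% of the 12530 genes that reached 1 CPM in both tissues.

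Some genes were read in only 1 of the tissues. Of the genes called over 2-fold higher in the brain, 1895 had not a single read in the 6 heart libraries. Of those called higher in the heart, 184 had no brain read. Genes that were not called are left out of these counts. A count of 0 allows up to 3 reads over the 6 libraries, which is 0.0211 CPM in the heart and 0.0143 CPM in the brain; these limits cover counting error only. In bulk tissue, fewer cells of a type and less RNA per cell cannot be told apart, and this holds for every difference below.

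Among genes with at least 20 CPM in the higher tissue, those with the largest fold differences included, in the brain, several proteins of neuronal signalling. Caln1, a calmodulin-like calcium binder of neurons, had 254, 270 and 343 CPM (lowest, median and highest library) in the brain and no read in the heart, and was at least 13250-fold higher in the brain. Rgs8, which switches off G-protein signals, followed with 213, 250 and 303 CPM in the brain, no heart read and at least a 12020-fold difference. Grm5, a metabotropic glutamate receptor, Slc32a1, which loads GABA and glycine into vesicles, Mlc1, a membrane protein of astrocytes, and the orphan receptor Gpr26 also had no heart read, with brain medians of 153, 150, 150 and 132 CPM. The same was true of B3gat1, Amer2 and Ly6h, with medians of 124, 114 and 116 CPM. Camkv, a kinase-like protein of synapses, had 62403 reads in the brain libraries and 1 in the heart libraries, a ratio of 42470 on scaled library sizes with a 95% counting interval from 7623 to 1678000.

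In the heart the corresponding genes included parts of the sarcomere and of its energy supply, a membrane protein and a signal of the atria. Actc1, the cardiac actin, had 7732, 8320 and 8906 CPM in the heart and 3 reads in all in the brain, a ratio of 580300 with a counting interval from 198600 to 2814000. Lrtm1, a membrane protein with leucine-rich repeats, had 473, 510 and 672 CPM in the heart and no brain read, so that it was at least 37430-fold higher in the heart. Myl3, a myosin light chain, reached a heart median of 4441 CPM, Ankrd1, a stretch-responsive partner of titin, 2670 CPM, and Csrp3, a protein of the Z-disc, 1194 CPM, against brain maxima of 0.112, 0.0560 and 0.0297 CPM. Ckm and Ckmt2, the cytosolic and mitochondrial creatine kinases of muscle, and Mb, the oxygen store myoglobin, had heart medians of 1712, 1917 and 10090 CPM and brain maxima of 0.0312, 0.102 and 0.308 CPM. Bmp10, a signal made by the atria, ranged more widely within the heart, from 113 to 575 CPM with a median of 269, and had 1 brain read.

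By CPM, which is not scaled to gene length, the most highly counted genes called higher in the brain included Snap25 and Mbp, given above, with Kif5a, Sparcl1, Slc1a2, Meg3 and Apoe. Kif5a, the neuronal motor of axonal transport, had 2386, 2646 and 2874 CPM in the brain and 2.47, 3.32 and 6.00 CPM in the heart, a log2 difference of 9.40 ± 0.16 (SE). Slc1a2, the main glutamate carrier of astrocytes, had a median of 1714 CPM in the brain and 1.80 CPM in the heart (log2 difference 9.82 ± 0.11). The brain value of the imprinted non-coding RNA Meg3 varied most, from 1047 to 2863 CPM, yet stayed far above the 3.39 to 6.502 CPM of the heart. Sparcl1, a matrix protein, and Apoe, the lipid carrier made by glia, were also plentiful in the heart, at medians of 458 and 491 CPM against 1642 and 1707 CPM in the brain.

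In the heart the most highly counted genes were Myh6, Mb, the calcium pump gene Atp2a2 and 7 genes of the mitochondrial genome. mt-Co1, a catalytic subunit of cytochrome oxidase, had 71110, 88190 and 96690 CPM in the heart and 7708, 10010 and 10810 CPM in the brain, a log2 difference of -3.12 ± 0.10 (negative values are higher in the heart). Of the 13 tested members of the mitochondrial genome list, 12 were called higher in the heart and none in the brain. The list does not hold every mitochondrial gene that was tested. The exception in the list was the ribosomal RNA mt-Rnr1, at medians of 3191 CPM in the heart and 1598 CPM in the brain. Its log2 difference of -1.03 ± 0.09 was not shown to exceed 2-fold (adjusted p = 0.273, edgeR). The difference was called once brain library 28, 30 or 31 was left out. Capture by poly(A) measures ribosomal RNA only in part, and its role here was not tested.

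Lists of genes by function and by cell type summarise the rest, and the plot of all lists shows the share of each that was called in each direction. These shares can be read against the 32.9% and 18.3% over all genes tested. All 12 neuron markers and all 8 oligodendrocyte markers were higher in the brain, with median log2 differences of 9.09 and 9.24, against a median of 0.42 over all genes tested. Of 8 astrocyte markers 7 were higher in the brain. The eighth, Gja1, encodes a gap junction protein that astrocytes and cardiomyocytes share. All 12 cardiomyocyte markers were higher in the heart, at a median of -12.18. Fibroblast and matrix markers were higher in the heart in 8 of 10, mural cell markers in 8 of 9 and endothelial markers in 10 of 12.

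Markers of the cells that line and support vessels did not all lie on 1 side. Pecam1, a general endothelial adhesion protein, had 19.0, 21.7 and 23.3 CPM in the brain and 253, 256 and 307 CPM in the heart (log2 difference -3.64 ± 0.07). Slco1c1, a thyroid hormone carrier of the blood-brain barrier, ran the other way, at a median of 37.9 CPM in the brain and 0.137 CPM in the heart. The matrix proteoglycan Dcn had a median of 16.3 CPM in the brain and 752 CPM in the heart, and Rgs5, a marker of pericytes, 75.6 and 908 CPM. None of these 4 genes overlapped between the tissues.

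Resident macrophages were a cell type that both organs share. Of 12 microglia and macrophage markers, 4 were higher in the brain, 3 in the heart and 5 were alike. Csf1r, the receptor that macrophages and microglia need to survive, had 49.8, 52.3 and 56.3 CPM in the brain and 51.6, 59.4 and 81.2 CPM in the heart, and the groups overlapped (-0.23 ± 0.09). C1qb, part of the first complement component, had medians of 40.1 and 51.6 CPM and also overlapped (-0.31 ± 0.11). The 4 markers higher in the brain included P2ry12 and Tmem119, which are known to mark microglia against other macrophages. Their log2 differences were 2.54 and 1.83. Cx3cr1 was also among the 4, at 2.54. Lyz2, Mrc1 and Cd163, which mark other macrophages, were higher in the heart, at -3.80, -3.87 and -4.51.

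The genes of the action potential divided by family. Voltage-gated sodium channels open first and carry the upstroke. Of 15 subunit genes, 9 were higher in the brain and 4 in the heart, with 1 alike. Scn8a, a channel of the axon's initial segment, had 291, 313 and 353 CPM in the brain and 0, 0.101 and 0.194 CPM in the heart (log2 difference 11.58 ± 0.39), without overlap. The neuronal Scn1a and Scn2a had brain medians of 232 and 291 CPM and heart medians of 0.0239 and 0.622 CPM, while Scn4a, known as the channel of skeletal muscle, had 73.5, 85.9 and 96.0 CPM in the heart and 1 brain read. The accessory subunit Scn4b was alike, at medians of 203 and 158 CPM (0.45 ± 0.09).

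Calcium channels carry the plateau of the cardiac action potential and trigger release at synapses. Of 25 subunit genes, 18 were higher in the brain, 3 in the heart and 2 alike. Cacna1c, the L-type channel that triggers contraction, had 80.3, 89.8 and 100.4 CPM in the brain and 347, 392 and 462 CPM in the heart, without overlap (-2.18 ± 0.08). Cacna1e, a neuronal R-type channel, had 159, 191 and 242 CPM in the brain and at most 0.857 CPM in the heart (8.61 ± 0.25), and the auxiliary Cacnb4 a median of 282 against 1.59 CPM. The auxiliary subunit Cacna2d1 was alike, at medians of 159 and 244 CPM (-0.67 ± 0.08).

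Potassium channels repolarise the membrane and set its rest. Of 50 voltage-gated potassium channel genes, 39 were higher in the brain and 8 in the heart, with a single gene alike. Kcna2, which limits repetitive firing of axons, had a median of 419 CPM in the brain and 10.9 CPM in the heart (5.23 ± 0.09). Kcnip2, the partner of the cardiac transient outward channel, was higher in the heart, with 69.3, 71.6 and 81.7 CPM in the brain and 181, 197 and 220 CPM in the heart (-1.43 ± 0.06). Of 27 inward rectifier and leak channel genes tested, 15 were higher in the brain, 6 in the heart and 4 alike. Kcnj10, the potassium buffer of glia, had 202 CPM in the brain and 0.554 CPM in the heart at the median. Abcc9, a regulatory subunit of ATP-sensitive potassium channels, had 12.1 and 532 CPM, and the leak channel Kcnk3 had 42.0 and 363 CPM. Among those alike was Kcnj3, which couples muscarinic receptors to slowing of the heart and neuronal receptors to inhibition, with 114, 121 and 141 CPM in the brain and 178, 190 and 229 CPM in the heart (-0.67 ± 0.07).

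The pacemaker channels open on hyperpolarisation and drive rhythmic firing. Hcn2 and Hcn3 were higher in the brain, with median levels of 207 and 16.4 CPM there and of 18.0 and 0.159 CPM in the heart. Hcn4, the pacemaker channel of the sinoatrial node, had 17.0, 17.4 and 17.9 CPM in the brain and 15.7, 19.1 and 26.4 CPM in the heart. Its groups overlapped, and its log2 difference was -0.22 ± 0.10 (adjusted p = 0.0571, edgeR) with an interval within 2-fold.

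Cells of the heart are joined end to end by gap junctions, desmosomes and adherens junctions. Of 16 connexins and pannexins tested, 9 were higher in the brain and 6 in the heart. Gja1 had 131, 140 and 147 CPM in the brain and 476, 508 and 550 CPM in the heart (-1.86 ± 0.05). Gjb6, a connexin of astrocytes, had 56.8 CPM at the brain median and 1 read in the heart, and Panx2 had 112 and 2.99 CPM. Of 19 genes of the intercalated disc, 13 were higher in the heart, 2 in the brain and 3 alike. Dsp, which ties desmosomes to the cytoskeleton, had 3.13, 4.97 and 6.91 CPM in the brain and 2405, 2855 and 3093 CPM in the heart (-9.10 ± 0.13). Xirp2 had 0.118 and 1605 CPM at the medians. The adaptor Ank2 was higher in the brain, at 695 against 205 CPM (1.74 ± 0.07), and Ctnnb1, beta-catenin, was alike at 431 and 539 CPM (-0.31 ± 0.05).

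Genes of the synapse lay almost wholly on the brain side. Of 29 genes of vesicle release 27 were higher in the brain, none in the heart, and 2 were alike, and the 29 together took from 1.604% to 1.75% of gene counts in the brain and from 0.0324% to 0.0349% in the heart. Syt1, the calcium sensor of release, had 966, 999 and 1097 CPM in the brain and 0, 0.545 and 4.08 CPM in the heart. Syp, a vesicle membrane protein, had medians of 1048 and 5.09 CPM (7.72 ± 0.09), and Cplx2, which holds vesicles ready for fusion, 923 and 7.44 CPM (6.93 ± 0.11). In the heart, the highest Snap25 values were 2.43 CPM in library 62 and 2.02 CPM in library 64, and the same libraries had the highest Syt1 values, 1.51 and 4.08 CPM.

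On the receiving side, 49 of 53 postsynaptic receptors and scaffolds were higher in the brain, 1 in the heart and 3 were alike. Gria2, an AMPA receptor subunit, had 413, 475 and 548 CPM in the brain and at most 0.507 CPM in the heart (11.91 ± 0.58). Grin2b, an NMDA receptor subunit, had a brain median of 420 CPM and 4 heart reads in all. Dlg4, the scaffold PSD-95, had 434 and 5.69 CPM (6.23 ± 0.07), and the GABA-B receptor gene Gabbr1 617 and 11.4 CPM. The single gene higher in the heart was the scaffold Homer2, at 50.6, 61.5 and 70.1 CPM in the brain and 127, 133 and 148 CPM in the heart (-1.14 ± 0.07), a call that was lost with DESeq2, on library totals and in a fit of all 34 aged libraries. Receptors for transmitters and hormones of the autonomic system split more evenly, with 11 of 25 higher in the brain, 8 in the heart and 2 alike. Chrm2, the muscarinic receptor through which the vagus slows the heart, had 30.8 CPM in the brain and 212 CPM in the heart at the medians (-2.84 ± 0.09), whereas the adenosine receptor Adora1 had 213 and 16.6 CPM (3.65 ± 0.11). Adrb1, the main beta-adrenergic receptor of the heart, ranged from 16.4 to 20.2 CPM in the brain and from 18.0 to 23.6 CPM in the heart and was alike (log2 difference -0.13). The natriuretic peptide clearance receptor Npr3 had 12.1 and 86.0 CPM.

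Calcium release from stores was divided between different genes. Of 39 genes of store release and uptake, 17 were higher in the brain, 14 in the heart and 5 were alike, with a median log2 difference of -0.43 that became 0.14 on library totals. Ryr2, the release channel of the cardiac store, had 147, 186 and 221 CPM in the brain and 2542, 3227 and 3480 CPM in the heart (-4.07 ± 0.10). Itpr1, a release channel opened by inositol trisphosphate and rich in Purkinje cells, had 891, 932 and 1238 CPM in the brain and 77.2, 85.2 and 101.3 CPM in the heart (3.50 ± 0.08). Neither gene overlapped between tissues. Atp2a2, the pump that refills the store, was the main member of its family in both, with 95.3% of the family total per kilobase in the brain and 99.8% in the heart, but its level was 970, 1006 and 1100 CPM in the brain and 20350, 21460 and 25230 CPM in the heart (-4.45 ± 0.06). The regulators that accompany it in the heart were close to absent from the brain. Pln, the inhibitor of the pump, had a heart median of 6000 CPM and a brain median of 1.29 CPM, and Hrc, a calcium binder of the store, 1390 and 0.255 CPM. For calcium extrusion, the exchanger Slc8a1 made up 99.4% of its family total per kilobase in the heart, and Slc8a2 63.98% in the brain.

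Calcium sensors and their kinases were mostly higher in the brain, in 26 of 33 genes against 3 in the heart and 3 alike. Camk2a had 1138, 1322 and 1392 CPM in the brain and 56.2, 61.97 and 70.6 CPM in the heart (4.38 ± 0.06). Rcan2, a regulator of calcineurin, was higher in the heart, at medians of 254 and 652 CPM (-1.39 ± 0.05). The contractile apparatus lay on the heart side, with 37 of 42 sarcomere genes higher there and 2 in the brain. Together they took from 8.98% to 10.4% of gene counts in the heart and from 0.124% to 0.130% in the brain. Ttn, the giant spring of the sarcomere, had 6934, 8057 and 8910 CPM in the heart and 1.46, 2.28 and 3.48 CPM in the brain, and Tnnt2, cardiac troponin T, medians of 7833 and 4.47 CPM. Tpm1, a tropomyosin, kept a larger brain level, 141.8 against 9242 CPM (-6.02 ± 0.06). The thin filament cap Tmod2 ran the other way, at 462 CPM in the brain and 14.4 CPM in the heart (4.91 ± 0.07).

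Genes of fuel use showed the next large divide in RNA level. Of 40 genes of fatty acid uptake and oxidation, 35 were higher in the heart and 4 in the brain. Lpl, the lipase that frees fatty acids from circulating fat, had 12.5, 14.2 and 14.6 CPM in the brain and 8385, 9549 and 10280 CPM in the heart (-9.41 ± 0.07). Cd36, which takes fatty acids into the cell, had medians of 1.13 and 2977 CPM, the binding protein Fabp3 33.9 and 3069 CPM, and Hadha, a trifunctional enzyme of beta-oxidation, 56.6 and 2100 CPM. All 3 were free of overlap. Acsl6, an acyl-CoA synthetase of neurons and glia, was among the 4 higher in the brain, with 238 and 30.5 CPM (2.99 ± 0.05). Cpt1b, the muscle form of the enzyme that passes fatty acids into mitochondria, was counted at only 2.97 CPM in the heart. It shares 81.4% of its exon bases with Chkb on the same strand in the annotation used here for lengths, so its level is uncertain. Per kilobase, Cpt1c, a form known from neurons, made up 77.7% of the Cpt1 total in the brain, and Cpt1a 90.0% in the heart, where the share is uncertain because the total includes Cpt1b.

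Of 28 genes of the citrate cycle and of ketone use, 26 were higher in the heart, none in the brain, and 2 were alike. Idh2 showed the widest gap of those named, with 28.9, 29.8 and 31.01 CPM in the brain and 1843, 2199 and 2381 CPM in the heart (-6.19 ± 0.06). Ogdh had medians of 254 and 3157 CPM, and Mdh1 560 and 2205 CPM. Of 82 nuclear genes for subunits of the respiratory chain and ATP synthase, 74 were higher in the heart, 3 in the brain and 1 alike, at a median log2 difference of -2.09. Atp5a1 and Atp5b, the alpha and beta subunits of ATP synthase, had heart medians of 5027 and 6117 CPM and brain medians of 752 and 1084 CPM. Sdha of complex II differed by -2.37 ± 0.06 and Cox4i1 of complex IV by -1.95 ± 0.07. The 3 genes higher in the brain were Cox6a1, Cox8a and Ndufb2, of which the first and second are members of tissue pairs described next. Slc25a4, which exchanges ATP for ADP across the inner membrane, had 540 and 4286 CPM.

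Glycolysis did not divide in this way, with 7 of 34 genes higher in the brain, 15 in the heart and 8 alike. Pkm, which makes pyruvate, had 902, 1004 and 1124 CPM in the brain and 934, 999 and 1073 CPM in the heart. The groups overlapped throughout, with a log2 difference of 0.01 ± 0.06. In some enzyme families the tissues differed in the member that was read most, while Aldoa led the aldolases, Pfkm the phosphofructokinases and Ldhb the lactate dehydrogenases in both. Aldoc had 763, 893 and 948 CPM in the brain and at most 0.520 CPM in the heart, and Aldoa, 1202 and 2823 CPM (-1.21 ± 0.06). Of the enolases, Eno2 had 705 and 2.15 CPM and Eno3 5.37 and 1029 CPM. Of the glucose carriers, Slc2a1 had 87.3 and 22.8 CPM, the neuronal Slc2a3 118 and 4.51 CPM, and the insulin-responsive Slc2a4 2.15 and 378 CPM.

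Levels per kilobase of exon allow genes to be compared, as far as the annotated exon lengths hold. The share of a family held by its members showed near-complete exchanges in some families. Cox6a1 made up 98.1% ± 0.365 (SD, n = 6) of the Cox6a pair in the brain, and Cox6a2, the heart and muscle form, 93.4% ± 1.03 (SD, n = 6) in the heart. Ckb made up 100% of cytosolic creatine kinase in the brain after rounding, and Ckm 97.6% in the heart. Ckmt1 was 99.97% of the mitochondrial kinase in the brain and Ckmt2 99.98% in the heart. The phosphoglycerate mutase Pgam1 made up 98.5% in the brain and Pgam2 89.9% in the heart. Other families mixed. Cox7a2 was 97.7% of its pair in the brain and still 41.5% in the heart, and Cox8a was 99.5% in the brain and 30.5% in the heart. Lactate dehydrogenase did not change its makeup, with Ldhb at 84.0% in the brain and 83.0% in the heart, although the sum of Ldha and Ldhb was 355 CPM per kb in the brain and 1261 in the heart.

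**Figure D3:**
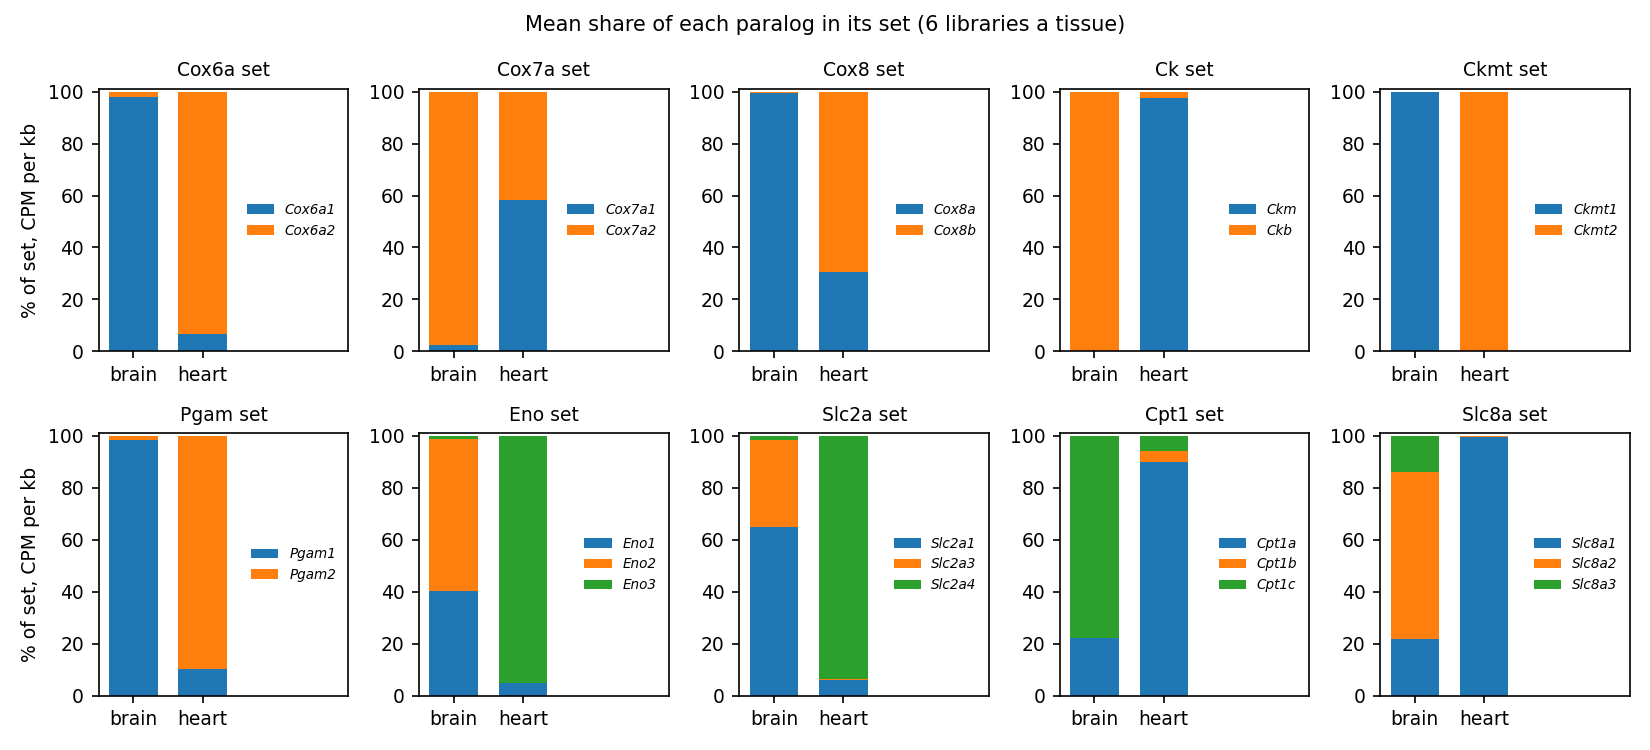
Share of each gene family's total level held by its members in vehicle brain and vehicle heart, in percent of CPM per kilobase of exon; stacked bars are means of 6 libraries per tissue, start at 0 and add up to 100%. Creatine kinase, Cox6a and phosphoglycerate mutase exchanged nearly their whole total between members, while Cox7a2 kept 41.5% and Cox8a 30.5% of their pairs in the heart.

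The promoters of such pairs differed in their letters as well. Promoter sequences, from 250 bases before to 50 bases after the gene's start, were taken from RefSeq for the GRCm38.p6 build. For Pgam1 and Pgam2, and for Cox8a and Cox8b, whose members changed places between tissues and whose promoters were chosen after their letters were counted, the sequences are printed 5′ to 3′ on the gene's strand, with each CG dinucleotide in capitals.
Pgam1: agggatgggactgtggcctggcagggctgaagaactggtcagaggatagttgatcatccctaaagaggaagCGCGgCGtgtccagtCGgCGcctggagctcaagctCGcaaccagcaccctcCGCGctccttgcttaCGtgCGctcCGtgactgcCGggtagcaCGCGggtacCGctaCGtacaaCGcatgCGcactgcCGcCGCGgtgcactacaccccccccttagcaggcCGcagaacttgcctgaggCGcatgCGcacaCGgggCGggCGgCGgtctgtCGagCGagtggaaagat
Pgam2: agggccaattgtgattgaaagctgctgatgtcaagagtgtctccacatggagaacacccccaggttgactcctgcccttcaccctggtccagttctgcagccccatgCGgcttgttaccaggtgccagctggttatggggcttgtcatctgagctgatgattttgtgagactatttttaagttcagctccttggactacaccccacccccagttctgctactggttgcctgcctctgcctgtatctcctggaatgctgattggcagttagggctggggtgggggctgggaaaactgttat
Cox8a: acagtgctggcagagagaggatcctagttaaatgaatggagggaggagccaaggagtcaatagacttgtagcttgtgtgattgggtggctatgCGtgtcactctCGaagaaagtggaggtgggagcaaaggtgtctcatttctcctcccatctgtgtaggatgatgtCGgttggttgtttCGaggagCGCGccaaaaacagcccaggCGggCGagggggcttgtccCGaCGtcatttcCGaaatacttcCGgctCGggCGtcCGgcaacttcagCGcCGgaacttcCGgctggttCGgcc
Cox8b: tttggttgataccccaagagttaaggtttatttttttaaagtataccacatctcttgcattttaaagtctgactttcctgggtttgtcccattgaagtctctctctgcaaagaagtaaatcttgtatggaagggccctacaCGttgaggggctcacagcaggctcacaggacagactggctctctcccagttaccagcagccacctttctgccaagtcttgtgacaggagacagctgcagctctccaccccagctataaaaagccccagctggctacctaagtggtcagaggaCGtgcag
The Pgam1 promoter lies at chr19:41911621-41911920 on the plus strand and holds 30 CG dinucleotides, and the Pgam2 promoter at chr11:5803747-5804046 on the minus strand holds 1. The Cox8a promoter, at chr19:7217567-7217866 on the minus strand, holds 19, and the Cox8b promoter, at chr7:140900397-140900696 on the minus strand, holds 2. In each pair the brain's main form had the more CG. The contrast was not general. Cox7a2 had 20 and Cox7a1 7, Ckb 22 and Ckm 7, Pygb 21 and Pygm 4, and the enolases Eno1, Eno2 and Eno3 14, 15 and 3, but Ckmt1 and Ckmt2 had 4 each. Aldoa, which held 61.9% of the aldolase pair in the brain and 99.99% in the heart, had 0 and Aldoc 8. A gene with several listed starts is given by the first.

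Over 27025 promoters of this length, 94.2% held at least 1 CG, with a median of 7. The median was 17 for 3916 genes higher in the brain, 14 for 2771 higher in the heart and 23 for 4290 that were alike. The 12 cardiomyocyte markers had a median of 3.5 and the sarcomere genes 6 (35 of 42 matched), whereas neuron markers had 23 (7 of 12 matched) and vesicle release genes 19 (23 of 29 matched). Fuel genes of the heart had higher medians than its contractile genes. These were 17 for fatty acid oxidation (34 of 40 matched) and 19 for the nuclear respiratory chain (67 of 82 matched). The 27025 promoters include those of genes not tested here, and no median was taken over tested genes alone. These counts describe the letters of the window only, and the members of a list share its selection.

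Regulators of transcription and splicing followed the tissue with some exceptions. Of 28 neural transcription factors 27 were higher in the brain. Zic1, a factor of cerebellar and other neurons, had 138.6, 150 and 189 CPM in the brain and 2 reads in the heart, and Myt1l, which holds neurons to their fate, had a brain median of 238 CPM and a heart maximum of 0.252 CPM. The exception was Rest, which represses neuronal genes outside the nervous system, with 6.03, 6.63 and 7.11 CPM in the brain and 18.4, 22.2 and 23.1 CPM in the heart (-1.72 ± 0.08). Of 24 cardiac transcription factors 17 were higher in the heart, 2 in the brain and 4 alike. The MEF2 factors, used by both muscle and neurons, summed to 94.95 CPM per kb in the brain and 92.9 in the heart. Mef2a and Mef2d were alike (-0.70 ± 0.05 and -0.39 ± 0.05), and Mef2c was higher in the brain at 304 against 105 CPM (1.54 ± 0.07). Of 29 splicing regulators, 15 were higher in the brain, 4 in the heart and 8 alike. Celf4 had medians of 464 and 0.876 CPM, Rbm20, which governs splicing of titin, 4.97 and 359 CPM, and Rbfox2 was alike at 242 and 141.9 CPM (0.75 ± 0.05).

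Some lists were mostly alike in the tissues, against 23.7% of all genes tested and 44.4% of genes that reached 1 CPM in both tissues. The rule for alike needs 1 CPM in both tissues, so the second share is the closer comparison for genes expressed in both. Of 31 proteasome subunits 25 were alike and 0 were over 2-fold higher in either tissue by edgeR's test, while 24 were higher in the heart and 2 in the brain by less, at a median log2 difference of -0.48 that became 0.09 on library totals. With upper-quartile factors 4 of them were over 2-fold higher in the heart. Psmc1, an ATPase of the proteasome's cap, had medians of 150 and 174 CPM (-0.20 ± 0.07). Psmc3 had the widest gap, 118 and 248 CPM (-1.07 ± 0.06), and was not shown to exceed 2-fold (adjusted p = 0.0754, edgeR), although it did when any 1 of the 6 brain libraries, or any 1 of heart libraries 62 to 66, was left out. Of 81 cytosolic ribosomal protein genes 45 were alike, 12 higher in the heart and 3 in the brain, and the number higher in the heart was 4 on library totals and 24 with upper-quartile factors. Rplp0 had 146.4 and 641 CPM (-2.13 ± 0.07), Rps2 209 and 644 CPM, and Rpl24 56.9 and 21.7 CPM. Some ribosomal proteins have many near-identical copies in the genome, over which reads can be split, so their levels are uncertain.

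Histone deacetylases and sirtuins, which include the targets of the compound tested in the study, were alike in 12 of 18, with 2 higher in each tissue, which became 6 in the brain and 1 in the heart on library totals. Hdac1 and Hdac2, the targets themselves, differed by -0.32 and 0.09 on the log2 scale, and Hdac2 had 55.6, 61.5 and 65.5 CPM in the brain and 52.0, 57.9 and 63.7 CPM in the heart, with overlap. Hdac11 was higher in the brain, at medians of 202 and 32.04 CPM (2.64 ± 0.08), and Hdac7 in the heart, at 22.8 and 59.7 CPM (-1.29 ± 0.08). Sirt2 was alike at 95.5 and 90.3 CPM. Clock genes were alike in 12 of 19, and in 6 of 19 on library totals. Bhlhe40, Per1 and Clock itself differed by 0.03, 0.15 and 0.13, while Rora was higher in the brain (1.54 ± 0.08). Of 17 genes often used as references in PCR, 4 were alike, 4 higher in the brain and 4 in the heart. The number higher in the brain was 7 on library totals, and that higher in the heart 7 with upper-quartile factors. Actb was alike, at 596 and 351 CPM (0.80 ± 0.08), though over 2-fold higher in the brain on library totals, Ywhaz differed by 2.37 ± 0.06, and Eef2 by -0.90 ± 0.06. Gapdh was counted at no more than 8.03 CPM in any of the 12 libraries, and it too has many near-identical copies.

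By level, the genes whose whole interval lay within 0.5 on the log2 scale included Eef1a1, an elongation factor of translation, Fth1, the heavy chain of ferritin, Psap, a lysosomal activator, Pkm and Gnas, the stimulatory G protein. Gnas had 860, 974 and 1023 CPM in the brain and 948, 974.6 and 1032 CPM in the heart (-0.03 ± 0.05). Eef1a1 had medians of 1530 and 1342 CPM (0.19 ± 0.06) and Fth1 1302 and 1541 CPM (-0.21 ± 0.06), each with overlap. The dynein heavy and light chains Dync1h1 and Dynll2, the microtubule protein Map4 and Prkar1a, a regulatory subunit of protein kinase A, were also among the first 10. In all 2338 genes met this tighter rule.

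To find what is common to these organs and is not common to every organ, the level in the kidney of vehicle mice of the same age was set beside them (5 libraries, whose groups follow their titles, because the treatment field of their labels gives the opposite). The brain had 7094 genes over 2-fold above the kidney (28.5% of 24855 tested) and the heart 3494 (14.1%). Both contrasts use the same kidney libraries, so their overlap is not given. Eef1a2, the elongation factor that replaces Eef1a1 in neurons and muscle, led the genes alike in brain and heart and low in kidney. It had 662, 773 and 813 CPM in the brain, 1194, 1262 and 1429 CPM in the heart and 0.0933 ± 0.137 CPM (SD, n = 5) in the kidney. The brain and heart groups did not overlap, though they lay within 2-fold (-0.76 ± 0.06). This interval passed 2-fold with upper-quartile factors and when brain library 28, 30, 31 or 32 was left out. In those fits the median log2 difference of genes expressed in both tissues was also lower. It was -0.196 with upper-quartile factors and between -0.11 and -0.0971 without those libraries, against 0.00 in the main fit. Kcnj3, described above, had 0.146 ± 0.120 CPM in the kidney.

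The other genes of this kind had varied roles. Akap6, which anchors protein kinase A at the nuclear envelope and near the calcium store, had medians of 263 and 378 CPM and 0.895 ± 0.349 CPM in the kidney. The orphan receptor Gpr22 had 45.2 and 62.8 CPM against 0.160 ± 0.11 CPM, and Cap2, which recycles actin, 151.1 and 198 CPM against 0.775 ± 0.105 CPM. Fgf13, a partner of sodium channels, had 72.8, 77.5 and 80.6 CPM in the brain and 54.3, 62.8 and 76.8 CPM in the heart, which overlapped (0.28 ± 0.07), and 0.685 ± 0.337 CPM in the kidney. Efnb3, an ephrin, had 108 and 103 CPM with overlap (0.05 ± 0.05) and 0.302 ± 0.0801 CPM in the kidney. Gal3st3 and Fstl4 were the lowest of those named, at brain medians of 27.8 and 19.5 CPM, heart medians of 16.9 and 15.7 CPM and kidney means of 0.101 and 0.0377 CPM. In the plot of these 9 genes every kidney library lies below every brain and heart library.

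**Figure D4:**
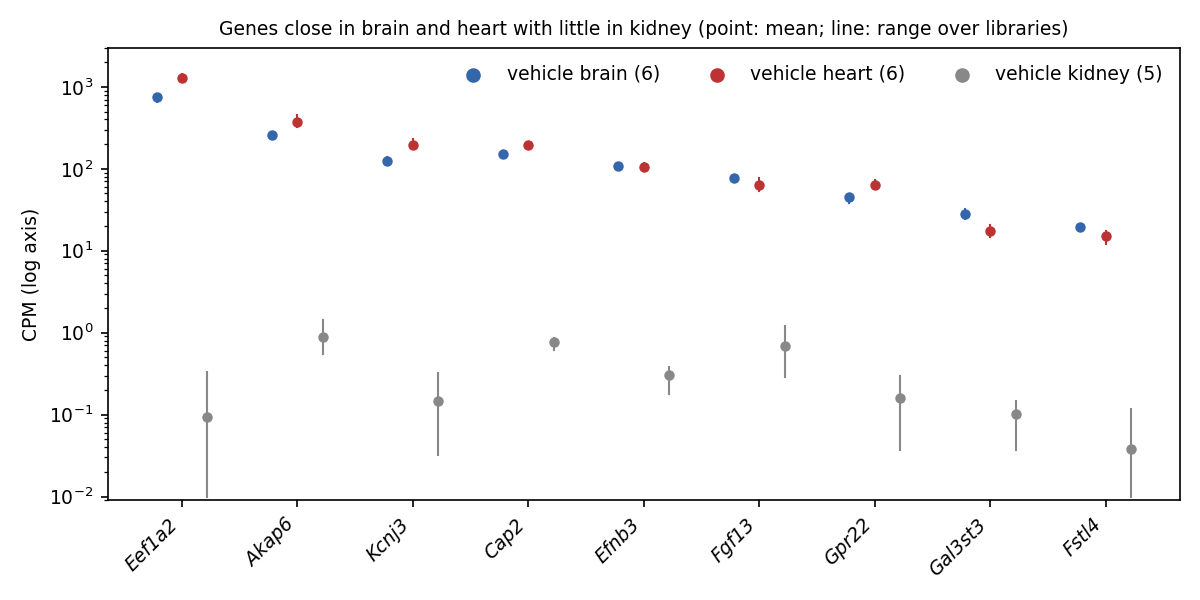
Level of 9 of the 10 genes alike in vehicle brain and vehicle heart with the largest ratio to vehicle kidney, in CPM on a log axis; points are means and lines the range over libraries (6 brain, 6 heart, 5 kidney), with ranges that reach 0 cut at the lower edge of the axis. Brain and heart points lie close together for each gene, and kidney points lie far below, at a mean of 0.895 CPM or less.

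Genes of amyloid and prion proteins were read in both tissues. Of 14 such genes, 6 were higher in the brain, 1 in the heart and 7 alike. App, the precursor of amyloid beta, had 1417, 1478 and 1672 CPM in the brain and 270, 313 and 336 CPM in the heart (2.29 ± 0.06). Itm2b, the precursor of other amyloid peptides, had medians of 555 and 633 CPM (-0.23 ± 0.06), and the heart level of Clu, a secreted chaperone, was 1140 CPM against 516 CPM in the brain (-1.18 ± 0.07), a call that was lost under the same 3 alternatives as that of Homer2. The secretase genes Bace1 and Adam10 were alike, at log2 differences of 0.47 and 0.11.

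Some markers of brain regions and of neighbouring tissues varied among the libraries of a tissue. The median SD of log2 CPM over the 6 libraries was 0.11 in the brain (11720 genes) and 0.14 in the heart (10748 genes). In the brain, Omp, a marker of olfactory neurons, ranged from 2.59 to 18.9 CPM, and Pmch, a peptide of the lateral hypothalamus, from 3.53 to 22.4 CPM. Cyp2a5, an enzyme of the nasal lining and liver, had 32.3 CPM in library 28 and from 0.223 to 1.04 CPM in the other 5. Hbb-b1, a haemoglobin chain, ranged from 54.8 to 205 CPM in the brain. Ttr, the carrier made by the choroid plexus, had 408, 527 and 579 CPM in the brain. The 8 choroid plexus markers together took from 0.0956% to 0.135% of the counts there.

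In the heart, library 62 held genes of the airway lining. Bpifa1 had 869 CPM there, 36.4 CPM in library 64 and 0.143 CPM or less in the other 4, and Ltf, Cyp2f2 and Sec14l3 had 147, 129 and 50.9 CPM in library 62 and 8.52, 6.75 and 1.97 CPM in library 64. Fat markers also varied. Ucp1, the uncoupler of brown fat, ranged from 0 to 119 CPM, Adipoq from 0.0956 to 33.8 CPM and Plin1 from 0.191 to 68.3 CPM, with the highest value of each in library 62. All 8 adipocyte markers were called higher in the heart, where they summed to between 0.00252% and 0.0387% of counts, and 2 of the 8 overlapped between tissues. Blood markers were higher in the heart in 6 of 8. Their part in other differences was not tested, but without library 62 the counts of genes over 2-fold higher in brain and of genes over 2-fold higher in heart were 7647 and 4367.

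The same contrast was made in other mice of the cohort, which had received the histone deacetylase inhibitor Cmpd60 in place of plain vehicle (6 brain and 5 heart libraries, 24343 genes tested). There 8074 genes (33.2%) were over 2-fold higher in the brain and 4540 (18.7%) in the heart. Of the 7711 genes higher in vehicle brain, 6779 were called the same way, which is 87.9% of them and 84.0% of the Cmpd60 list. Of the 4293 higher in vehicle heart, 3961 were called the same way, or 92.3% and 87.2% of each list. None was called in the opposite direction. An edgeR test of the difference between the contrasts called 120 of 25749 genes at an adjusted p below 0.05. Before adjustment, 3161 genes had a p below 0.05 in it. The shared calls describe the organs and do not measure how far treatment changed single genes. Myh6 differed by -18.80 on the log2 scale in the treated mice and by -18.11 in vehicle mice, Snap25 by 10.77 and 11.43, Pkm by -0.10 and 0.01, and Hcn4 by -0.07 and -0.22.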

How the data were processed

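The authors trimmed reads with Trimmomatic 0.32, aligned them with HISAT2 2.1.0 and counted them by strand with HTSeq 0.11.0 (versions from the submitters' processing notes), and deposited raw counts for 54232 Ensembl genes and 5 summary lines per library. The summary lines were left out. The genome build of the files is not given in the sources used here. Symbols were matched to 32651 genes.

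In R 4.3.3, a gene was kept if 3 or more of the 12 libraries had over 2 reads of it. Library sizes were scaled by TMM. edgeR 4.0.16 gave quasi-likelihood p-values (Benjamini-Hochberg adjusted) and, by glmTreat, a test against a 2-fold difference. The study's own methods use limma-voom, which was run as an alternative, as was DESeq2 1.42.0. CPM values use TMM library sizes. Exon lengths are the union of all exons of a gene in a reference annotation, which may differ from that used for counting. Values and shares per kilobase depend on these lengths. Kidney values come from a fit of 3 tissues with its own factors. Permutation tests were two-sided and exact. The tests were checked on simulated counts.

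Members and lists were chosen with earlier results of these data known. Genes were named by rule: the 10 largest folds and the 10 highest levels in each direction, the 10 highest of those alike and the 10 furthest above kidney, up to 4 members per list plus the highest called in each direction, and members of paralog sets. Scn1a, Scn2a, Scn4a, Adrb1, Hdac1, Bhlhe40, Per1, Clock, Gapdh, Ndufb2, Cx3cr1, P2ry12, Tmem119, Mrc1, Cd163, Bace1 and Adam10 were named after their values were seen. Leaving libraries out of the Cmpd60 and kidney fits, and other scalings of the lists, were added after the values were seen. Some genes that the rule names are not reported here.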

Additional observations from a re-analysis of the deposited data

Results flagged for a closer look

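Within the 6 libraries of a tissue, a gene was examined for a single library that stood apart from the others by Dixon's ratio, over 304 sets of 6 values, and 25 passed. Chance passes about 1 in 20 such sets. In vehicle brain these were, in CPM, library 32 for Atp2a2 (1100), Caln1 (343), Hcn3 (11.8), Itpr1 (1238) and Rbm20 (7.11), library 29 for Aldoc (763), Hdac7 (30.9), Itm2b (470) and Mlc1 (127), and library 30 for Camk2a (1138), Efnb3 (114), Mbp (3071) and Slc1a2 (1506). The share of the 10 genes with the most reads was lowest in library 32, at 4.04%. In vehicle heart they were library 62 for Eno2 (4.96) and Idh2 (1843), library 64 for Acsl6 (25.5) and Syt1 (4.08), library 65 for Cacnb4 (2.90), library 66 for Csrp3 (1447), Pecam1 (307) and Rora (41.1), and library 67 for Ckm (2001) and Homer2 (148). Heart library 66 also had the fewest genes detected at a common depth, 17730. Efnb3, whose log2 difference was 0.05 in all libraries, had -0.06 without brain library 30. In that fit the median log2 difference of genes expressed in both tissues also moved, from 0.00 to -0.11. How much of the change was particular to Efnb3 was not tested.

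For 6 genes named in the report the brain-heart difference itself differed between vehicle and Cmpd60-treated mice by an interaction term in edgeR, adjusted over 25749 genes. On the log2 scale, vehicle minus Cmpd60, it was 0.50 for Acsl6 (adjusted p = 0.00732), -0.59 for Efnb3 (adjusted p = 0.00716), 0.63 for Hcn2 (adjusted p = 0.0117), 0.45 for Gja1 (adjusted p = 0.0481), -0.64 for Kcna2 (adjusted p = 0.0464) and 4.53 for Amer2 (adjusted p = 0.0325). Amer2 had no read in vehicle heart and a mean of 0.0790 CPM in Cmpd60 heart, so the size of its value depends on the prior count. For Efnb3, alike in vehicle mice, the means were 109 and 105 CPM in vehicle brain and heart and 99.1 and 63.9 CPM in the treated mice, and for Hcn2 they were 209 and 18.4 CPM against 186 and 25.6 CPM.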

How the results depend on the processing

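No paired analysis was possible because the brain and heart libraries share no replicate numbers and the labels do not tie them to the same mouse. The counts over all genes stayed within 1.5 times their values under all alternatives tried, and each tissue kept its side in the share of mitochondrial counts and in the effective number of genes. Leaving out each of the 12 libraries in turn gave from 10176 to 10971 genes higher in brain, 7493 to 7844 genes higher in heart, 6962 to 7647 genes over 2-fold higher in brain, 4310 to 4533 genes over 2-fold higher in heart and 5418 to 5600 genes within 2-fold. The median log2 difference of genes expressed in both tissues was between -0.11 and -0.0971 without a brain library. Without a heart library it was between -0.0727 and -0.0403, against 0.00 in the main fit. The part of this shift in changes of single genes was not tested. DESeq2 called 6262 and 3797 genes over 2-fold, limma-voom 6928 and 3898, and library totals 9859 and 3104. Of 169 genes named, 131 were called over 2-fold. For these, 0 of the comparisons with an alternative reversed and 12 lost the call, in 8 genes: Kcnip2, Rcan2, Aldoa, Hdac7 and Rps2 on library totals, Cox8a with upper-quartile factors, and Homer2 and Clu. Of the other 38 genes, 15 changed their standing under at least 1 alternative. Clock genes alike were 12 of 19, and 6 on library totals, where histone deacetylases higher in the brain were 6 in place of 2. The median log2 difference of microglia and macrophage markers went from -0.25 to 0.32 on library totals, and that of the phosphocreatine list from -0.49 to 0.09. Depth limits the genes with few reads in 1 tissue, whose fold is known only as a bound.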
